A study of Rattus norvegicus with 12 samples.

Results

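The CELF genes, Celf1 to Celf6, encode RNA-binding proteins of the CUGBP and ETR-3-like factor family, and they were the 6 of 33294 rows of the deposited count table that carry these symbols. The rule picks them by name and uses no measured value, although the family was chosen with earlier results of these data known, and they were followed across 4 groups of PAC1 cells, a rat smooth muscle cell (SMC) line from pulmonary artery, with 3 poly(A) RNA-seq libraries in each group. All 6 rows were found, and 5 of them, Celf1 to Celf5, passed the filter on low counts in every comparison. Celf6 was not tested.

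CELF proteins bind GU-rich and UGU-containing RNA. In the nucleus they regulate alternative exons, and in the cytoplasm they direct the decay or translation of the mRNAs they bind, partly by recruiting deadenylases. They are best known as antagonists of the Muscleblind-like (MBNL) proteins, with which they act in opposite directions on many shared exons in heart and skeletal muscle, a balance that shifts during muscle development and in myotonic dystrophy. Celf1 (also CUGBP1) and Celf2 (also CUGBP2 or ETR-3) are closely related and widely expressed, whereas Celf3, Celf4, Celf5 and Celf6 form the other branch of the family and are expressed mostly in the nervous system.

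The cells of every group came from the one PAC1 line and were transfected with siRNA. D1 was the more differentiated PAC1-D state with control siRNA and P was the more proliferative PAC1-P state with control siRNA. RBPMS KD1 was PAC1-D with an siRNA against Rbpms, a splicing regulator of differentiated SMCs. MBNL KD was PAC1-D with siRNAs against both Mbnl1 and Mbnl2, although the titles of these libraries name MBNL1 alone. No knockdown in PAC1-P cells was analysed here. The labels give 90 pmol of siRNA, a second dose after 24 h and harvest 48 h after that, and the methods give a longer schedule. PAC1 is a single line whose states are kept by the rate of passage, so the groups model culture states and not vessel wall tissue. The study's methods describe the replicates of its experiments in general as independent biological replicates, whereas the labels of these libraries do not say whether the cultures were separate. If they were not, the p-values measure only a technical spread between libraries.

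The sense strands of the 4 designed siRNAs are printed because the siRNA is the only labelled difference between D1, RBPMS KD1 and MBNL KD. None of them was designed against a CELF gene.
C2 (control, D1 and P): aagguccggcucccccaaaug
RBPMS (RBPMS KD1): ggcggcaaagccgagaaggcgaaca
MBNL1 THH2 (MBNL KD): cacggaauguaaauuugcauu
MBNL2 (MBNL KD): gaagaguaauugccugcuuuu

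The libraries held between 80842635 and 90771289 counts, and 3 counts, the limit below which a gene was treated as not detected, corresponded to between 0.033 and 0.037 CPM (counts relative to the library total). Replicate 3 of MBNL KD had the lowest total. Over 12649 genes of higher count, it differed from replicates 1 and 2 by 15.5 and 15.6 times the variance expected from counting alone. The ratio was 4.04 for replicates 1 and 2 of that group and 4.08 to 9.11 in the other groups. Among counts up to 20, even counts were 2.03 to 2.30 times as frequent as odd ones in every library, as arises when both mates of a read pair are counted, although the sources used here do not state the setting. The variance ratios take each count as independent. If both mates were counted, these ratios are too large, and the 3-count limit stands for fewer than 3 fragments. The defining SMC markers were present. The summed level of the 8 SMC markers was 9420 to 9841 CPM in D1, 227 to 241 CPM in P, 4770 to 4892 CPM in RBPMS KD1 and 7818 to 7905 CPM in MBNL KD. The siRNA targets fell in their groups, Rbpms from 13346 ± 701 to 3337 ± 60.3 scaled counts in RBPMS KD1, and Mbnl1 from 30833 ± 460 to 7307 ± 85.6 and Mbnl2 from 16016 ± 174 to 4732 ± 80.5 in MBNL KD (D1 first, SD, n = 3 each).

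Levels of genes are given as scaled counts unless CPM or raw counts are named, that is raw counts divided by edgeR's TMM (trimmed mean of M-values) library factors and brought to the geometric mean library. They are not divided by transcript length, so they compare groups within a gene and not one gene with another. To be called, a gene needed an absolute log2 fold change over 1 together with an adjusted p below 0.05 in the quasi-likelihood test of edgeR, adjusted over all genes tested by the Benjamini-Hochberg method, and "edgeR adjusted p" below is that value. "Rose" and "fell" are kept for called genes. In bulk RNA, fewer cells expressing a gene and less RNA per cell cannot be told apart.

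Of the 5 tested CELF genes, Celf2 and Celf4 rose in P against D1, none was called in RBPMS KD1 against D1, and Celf3 and Celf4 rose in MBNL KD against D1. Over all genes tested, 27.6% were called in P against D1, 4.68% in RBPMS KD1 against D1 and 10.2% in MBNL KD against D1. With the adjusted p alone, 4, 1 and 3 of the 5 CELF genes passed in these comparisons, where 77.9%, 59.1% and 67.5% of all tested genes did, so that passing the adjusted p was common in these data. None of the CELF genes fell in a comparison with D1. These 3 comparisons share the D1 libraries.

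**Figure D1:**
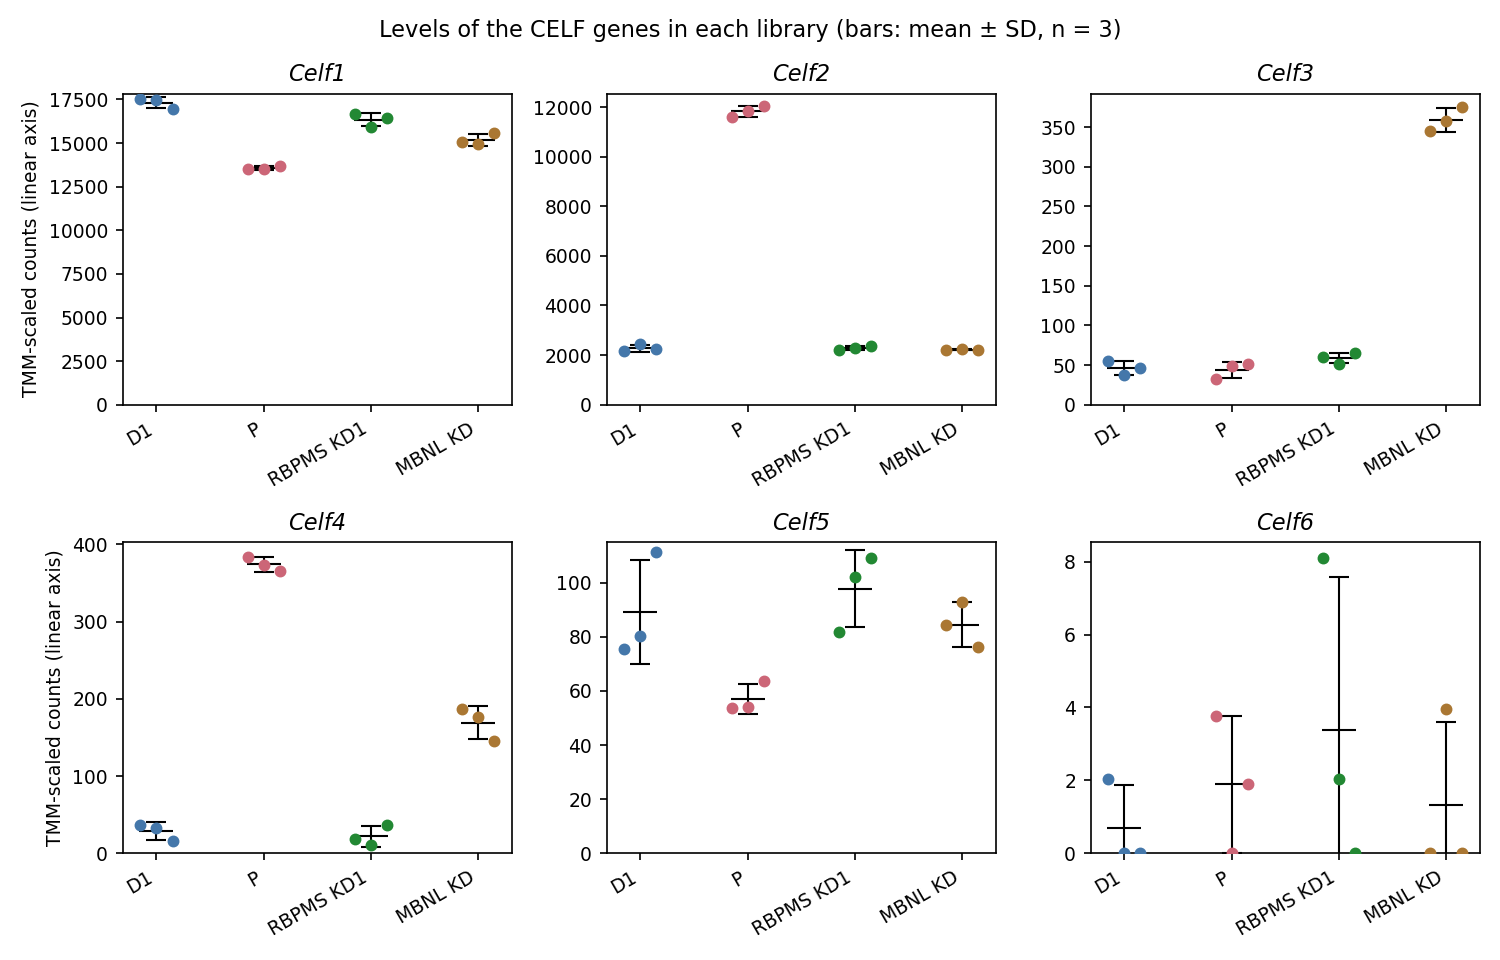
Scaled counts of the 6 CELF genes (linear vertical axes starting at 0, a different range for each gene) in the 12 libraries, with each point a library and bars for the mean ± SD of 3. Celf2 stands above the other groups only in P, Celf3 only in MBNL KD and Celf4 in both P and MBNL KD, while the 4 groups of Celf1 lie between 13505 and 17530.

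Celf2, which in muscle regulates exons of cardiac troponin T and other contractile genes, was raised in the proliferative state. The 3 D1 libraries held 2159, 2441 and 2242 scaled counts and the 3 P libraries 11585, 11848 and 12034. The lowest P library lay far above the highest D1 library, and the mean rose from 2281 ± 145 to 11823 ± 226 (SD, n = 3), a log2 fold change of 2.37 (SE 0.035, edgeR adjusted p = 9.2e-34) or 5.18-fold. With 3 libraries against 3, an exact two-sided permutation test gave p = 0.1, the smallest it can give. The absolute log2 fold change was larger than that of 88.2% of the genes tested.

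Neither knockdown in differentiated cells moved Celf2 past the threshold. RBPMS KD1 had 2217, 2288 and 2378 scaled counts and MBNL KD had 2208, 2235 and 2191. All 6 values lay between the lowest and the highest D1 library. The log2 difference from D1 was 0.01 in RBPMS KD1 (95% interval -0.09 to 0.11, edgeR adjusted p = 0.87) and -0.04 in MBNL KD (-0.13 to 0.06, adjusted p = 0.48), so that a change as large as that in P lies far outside both intervals. Set directly against each knockdown, Celf2 was 5.06-fold higher in P than in RBPMS KD1 (edgeR adjusted p = 1.2e-34) and 5.21-fold higher in P than in MBNL KD (adjusted p = 5.3e-33).

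Celf1, a translational and decay regulator as well as a splicing factor, varied within a narrow range. The D1 libraries had 17530, 17460 and 16948 scaled counts and the P libraries 13505, 13511 and 13688. RBPMS KD1 had 16672, 15937 and 16421, and MBNL KD had 15035, 14925 and 15591. No library of any other group reached the lowest D1 library, and the P libraries were below all others.

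The mean of Celf1 in P was 78.4% of that in D1, with a log2 difference of -0.35 (SE 0.025, edgeR adjusted p = 1.6e-14), which is under the fold threshold. The corresponding log2 differences were -0.18 in MBNL KD (SE 0.025, edgeR adjusted p = 1.9e-07) and -0.08 in RBPMS KD1 (SE 0.026, adjusted p = 0.0090). In P, 41.6% of tested genes had a smaller absolute log2 fold change than Celf1, in MBNL KD 32.6% did and in RBPMS KD1 19.8% did. The adjusted p of Celf1 in RBPMS KD1 ranged from 0.0050 to 0.168 over the alternatives, with 0.070 in the fit without replicate 2 of RBPMS KD1, and the log2 difference in P was -0.19 when libraries were scaled by their totals alone.

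Celf3, from the neural branch of the family, rose in MBNL KD. Scaled counts of Celf3 were 55.2, 37.2 and 46.9 in D1, and 345, 358 and 375 in the knockdown of Mbnl1 and Mbnl2. All MBNL KD libraries were far above all D1 libraries. The means were 46.4 ± 9.0 and 359 ± 15.3 (SD, n = 3). The log2 fold change was 2.95 (SE 0.15, edgeR adjusted p = 9.1e-17), or 7.75-fold, and 99.3% of the tested genes had a smaller absolute log2 fold change. Without replicate 3 of MBNL KD, the log2 fold change of Celf3 was 2.92, and by limma on the authors' normalised values it was 2.18.

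The other groups had low levels of Celf3. P had 33.0, 48.3 and 51.2 scaled counts and RBPMS KD1 had 59.6, 51.7 and 65.2. Both groups overlapped D1. The log2 difference from D1 was -0.07 in P (95% interval -0.64 to 0.49, edgeR adjusted p = 0.81) and 0.34 in RBPMS KD1 (-0.18 to 0.86, adjusted p = 0.26), and at raw counts of 35 to 65 per library these intervals are wide. On the authors' normalised values, limma gave a log2 difference of -0.32 between P and D1 (adjusted p = 0.047), under the fold threshold.

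Celf4, also of the neural branch, rose both in P and in MBNL KD. The D1 libraries had 36.8, 33.0 and 15.3 scaled counts, the P libraries 384, 373 and 365, and the MBNL KD libraries 187, 176 and 145. The P libraries were above all MBNL KD libraries, and these were above all D1 libraries. The mean of 28.4 ± 11.5 in D1 became 374 ± 9.6 in P, a log2 fold change of 3.71 (SE 0.18, edgeR adjusted p = 4.6e-19) or 13.1-fold, and 169 ± 21.6 in MBNL KD, a log2 fold change of 2.58 (SE 0.23, edgeR adjusted p = 3.5e-11) or 5.98-fold. Without replicate 3 of MBNL KD the latter was 2.68, and on the authors' normalised values, which have a smallest value of 35, the 2 log2 fold changes were 2.40 and 1.61.

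In RBPMS KD1, Celf4 had 18.2, 11.1 and 37.1 scaled counts, which overlapped the D1 libraries. The log2 difference from D1 was -0.35 (95% interval -1.19 to 0.49, edgeR adjusted p = 0.48). Replicate 3 was the highest of the 3 RBPMS KD1 libraries and the lowest of the 3 D1 libraries, and leaving out 1 library at a time moved the difference between -0.94 and -0.03. A 2-fold fall lies inside that interval and a 2-fold rise outside it.

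For Celf5, scaled counts were 75.6, 80.5 and 111 (D1), 53.7, 53.9 and 63.5 (P), 81.9, 102 and 109 (RBPMS KD1), and 84.5, 92.9 and 76.4 (MBNL KD). The P libraries were below the 9 others, and the 3 groups of PAC1-D cells overlapped. The log2 difference between P and D1 was -0.64 (SE 0.23, edgeR adjusted p = 0.010), under the fold threshold. Its adjusted p was 0.0998 in the fit without replicate 3 of D1, the highest D1 library. With libraries scaled by their totals alone, the difference was -0.48 (edgeR adjusted p = 0.053). Against D1, the log2 difference was 0.14 in RBPMS KD1 (95% interval -0.28 to 0.55) and -0.07 in MBNL KD (-0.48 to 0.34).

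Celf6 was near the limit of detection, with raw counts of 2, 0 and 0 in D1, 4, 0 and 2 in P, 8, 2 and 0 in RBPMS KD1, and 0, 4 and 0 in MBNL KD, all of them even. The 3 libraries above the 3-count limit belonged to 3 different groups, and no fold change is given.

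**Figure D2:**
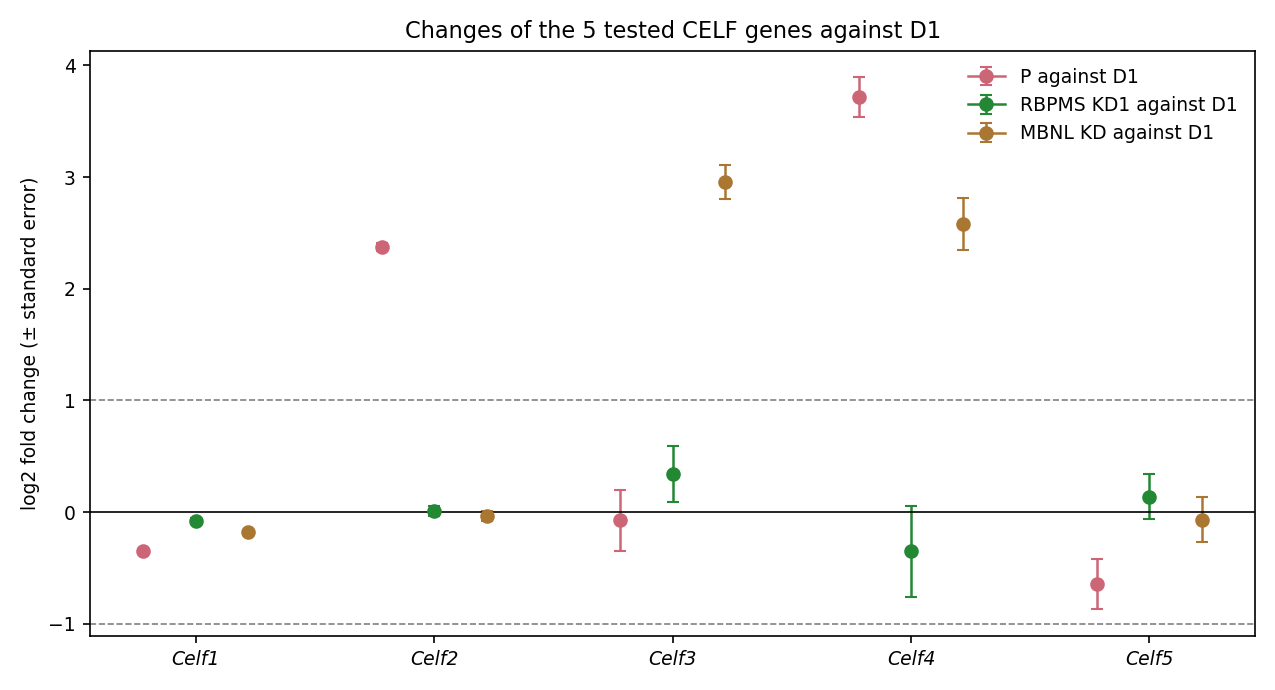
Log2 fold change against D1 (vertical axis, with bars for the standard error, which are smaller than the points for Celf1 and Celf2) of the 5 tested CELF genes in P, RBPMS KD1 and MBNL KD, with dashed lines at the fold threshold of 1 in either direction. Points above the upper line are Celf2 and Celf4 in P and Celf3 and Celf4 in MBNL KD, and no point lies below the lower line.

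The knockdowns were also compared with each other, because both use D1 as their reference. Celf3 was 6.09-fold higher in MBNL KD than in RBPMS KD1, with a log2 fold change of 2.61 (SE 0.14, edgeR adjusted p = 1.6e-16), and Celf4 was 7.60-fold higher, with 2.93 (SE 0.26, edgeR adjusted p = 1.7e-11). For Celf4 the value was 3.50 without replicate 3 of RBPMS KD1 and 1.84 by limma on the authors' normalised values. Celf3 and Celf4 were the 2 of 5 tested genes called in this comparison, in which 11.9% of all tested genes were. For both genes the 3 MBNL KD libraries were above the 3 RBPMS KD1 libraries, and for Celf1 they were below them. No share of all genes that separate in this way is given. Celf2 and Celf5 had log2 differences of -0.05 (95% interval -0.14 to 0.04) and -0.21 (-0.60 to 0.18).

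The comparisons of P with each knockdown completed the order of the groups. Against RBPMS KD1, Celf2 and Celf4 were called (2 of 5, where 29.1% of all tested genes were), with log2 fold changes of 2.34 and 4.04. The value of Celf4 was 4.64 without replicate 3 of RBPMS KD1 and 2.63 by limma on the authors' normalised values. Against MBNL KD, Celf2, Celf3 and Celf4 were called (3 of 5, where 32.9% of all tested genes were). Celf3 was 8.33-fold lower in P than in MBNL KD (log2 fold change -3.06, edgeR adjusted p = 1.9e-17) and Celf4 was 2.15-fold higher (1.10, adjusted p = 4.7e-10). The call of Celf4 rested near the fold threshold: its log2 fold change was 1.00 without replicate 3 of MBNL KD and 0.79, not called, on the authors' normalised values.

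From highest to lowest mean, the groups were therefore D1, RBPMS KD1, MBNL KD and P for Celf1, with an adjusted p under the threshold between each of these neighbours (0.00087 between the knockdowns, and up to 0.061 there under the alternatives). For Celf2 the order was P and then the 3 PAC1-D groups, which did not differ beyond their spread. For Celf3 it was MBNL KD and then RBPMS KD1, D1 and P, of which no neighbours passed the test. For Celf4 it was P, MBNL KD, D1 and RBPMS KD1, with the last 2 overlapping. For Celf5 it was RBPMS KD1, D1, MBNL KD and P, of which only P against MBNL KD, among neighbours, passed the adjusted p (0.011). The orders of Celf1, Celf4 and Celf5 were the same under library-total scaling and in the authors' normalised values, whereas the lower 3 groups of Celf2 changed places under both, and D1 and P of Celf3 changed places under library-total scaling.

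The summed CELF counts changed in make-up between the culture states. The 6 genes together took 0.0213% ± 0.00036 of all counts in D1, 0.0313% ± 0.00027 in P, 0.0206% ± 0.00049 in RBPMS KD1 and 0.0203% ± 0.00048 in MBNL KD (SD, n = 3). Celf1 gave 87.6% ± 0.61 of these counts in D1 and 52.5% ± 0.32 in P, with 86.8% ± 0.58 in RBPMS KD1 and 84.3% ± 0.48 in MBNL KD. Celf2 made up most of the rest, with 11.5% ± 0.65 in D1 and 45.7% ± 0.34 in P.

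The ratio of Celf2 to Celf1 counts, which does not depend on library scaling, was 0.1231 to 0.1398 in the D1 libraries, 0.133 to 0.145 in RBPMS KD1, 0.1405 to 0.1498 in MBNL KD and 0.858 to 0.879 in P. The P range is far from all others. RBPMS KD1 overlapped both D1 and MBNL KD, and the ranges of D1 and MBNL KD lay close together without overlapping. Celf3 went from 0.24% ± 0.047 of the CELF counts in D1 to 1.99% ± 0.057 in MBNL KD, and Celf4 from 0.14% ± 0.056 in D1 to 1.45% ± 0.055 in P and 0.94% ± 0.13 in MBNL KD. The 2 genes that rose in MBNL KD thus remained a small share of the CELF counts there. Because counts are not divided by transcript length, these are shares of counts and not of molecules.

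**Figure D3:**
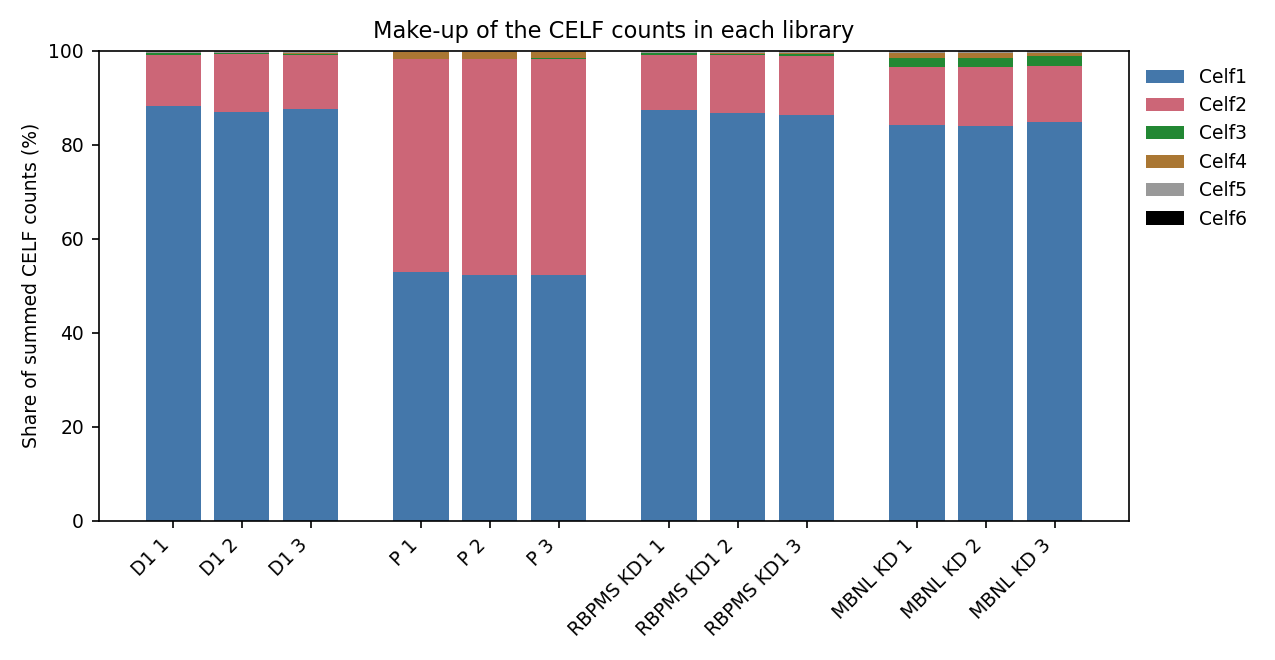
Share of the summed CELF counts (vertical axis, in percent) taken by each of the 6 genes, 1 bar for each library, labelled by group and replicate. The share of Celf1 is between 83.9% and 88.3% in the PAC1-D libraries. In the P libraries it is between 52.2% and 52.8%, and Celf2 takes between 45.3% and 45.9%.

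The MBNL genes, the antagonists of CELF, were set beside them. Mbnl1 averaged 30833 ± 460 (D1), 37106 ± 652 (P) and 33336 ± 603 (RBPMS KD1) scaled counts (SD, n = 3). Mbnl2 had 16016 ± 174, 8348 ± 146 and 17995 ± 440 in the same groups, with a log2 difference of -0.94 between P and D1. Mbnl3, which was not targeted, rose from 1468 ± 44.9 in D1 to 6101 ± 113 in P (log2 fold change 2.05, SE 0.038, edgeR adjusted p = 3.9e-31) and to 3082 ± 72.3 in MBNL KD (1.08, SE 0.043, adjusted p = 2.7e-19). Mbnl3 shared with Celf4 a call in both of these comparisons, which both use the D1 libraries.

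The ratio of Celf1 plus Celf2 counts to Mbnl1 plus Mbnl2 counts was 0.418 ± 0.013 in D1, 0.559 ± 0.013 in P, 0.363 ± 0.011 in RBPMS KD1 and 1.44 ± 0.021 in MBNL KD (SD, n = 3). The ranges of the 4 groups did not overlap. In MBNL KD both genes of the denominator are siRNA targets, and summed Celf1 and Celf2 were 17395 ± 337 scaled counts there, beside 19593 ± 365 in D1. With Mbnl3 counted as well, the ratios were 0.406, 0.493, 0.351 and 1.15. They compare counts of genes of unequal transcript length, so that only the differences between groups can be read.

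**Figure D4:**
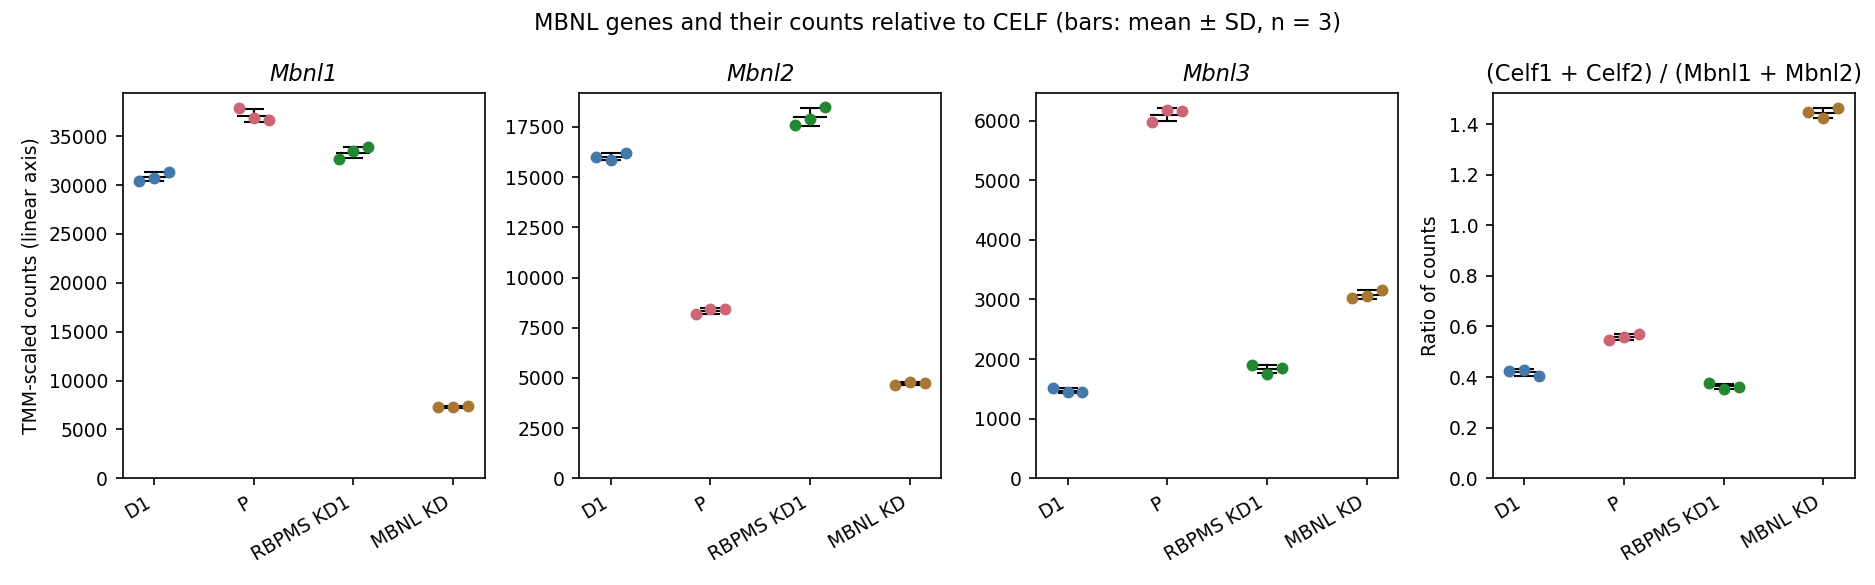
Scaled counts of Mbnl1, Mbnl2 and Mbnl3 (first 3 panels, linear axes from 0) and the ratio of Celf1 plus Celf2 to Mbnl1 plus Mbnl2 counts (last panel) in the 12 libraries, with points for libraries and bars for the mean ± SD of 3. The ratio is 0.418 in D1, 0.559 in P, 0.363 in RBPMS KD1 and 1.44 in MBNL KD, and Mbnl3 is highest in P.

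Markers of other cell types were counted because Celf3 to Celf6 are mostly neural genes. The summed level of 10 neuron markers was 13.4 to 14.6 CPM in D1, 136 to 139 CPM in P, 14.8 to 15.99 CPM in RBPMS KD1 and 10.4 to 11.8 CPM in MBNL KD. In P, where 27.6% of all tested genes were called, 2 of the 4 tested neuron markers were and both rose, Stmn2, a microtubule-destabilising protein of growing neurites (log2 fold change 5.59), and Map2, a dendritic microtubule-associated protein (2.02). In MBNL KD, where 10.2% of all tested genes were called, none of the 4 was, and Stmn2 and Map2 were lower, at -0.95 and -0.41. The defining neuron markers Elavl4 and Rbfox3 stood at 0 and at a mean of 2.0 scaled counts in D1, and Elavl4 was at 0 in all 12 libraries. The neuron sum was higher than in D1 in P, as Celf4 was, and lower in MBNL KD. Its part in the results of either group was not tested.

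The 5 endothelium markers summed to 0.72 to 0.79 CPM in D1, 5.84 to 7.28 CPM in P, 1.76 to 1.80 CPM in RBPMS KD1 and 0.94 to 1.41 CPM in MBNL KD. All 3 tested in P rose (Cdh5, Tek and Vwf), as did both tested in RBPMS KD1 (Tek, log2 fold change 1.32, and Vwf, 1.22), and neither of the 2 tested in MBNL KD was called, beside 27.6%, 4.68% and 10.2% of all tested genes called in P, RBPMS KD1 and MBNL KD. The defining markers Cdh5 and Kdr were at 0 in D1 and in both knockdowns. The 5 leukocyte markers summed to 0.84 to 1.06 CPM in D1, 0.94 to 1.54 CPM in P, 0.89 to 1.30 CPM in RBPMS KD1 and 1.35 to 1.48 CPM in MBNL KD. Of these, 2 were tested in each comparison, and 1 call was made, Csf1r in MBNL KD, where 10.2% of all tested genes were called (log2 fold change 1.30, from 23.6 to 58.0 mean scaled counts), where Ptprc, Itgam and Adgre1 were at 0. The part of these markers in the results for Celf2, Celf3 and Celf4 was not tested.

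Genes next to the CELF genes were read because overlapping reads could be assigned to either, and whether the authors' counting used strand is not given in the sources used here. In the order of genes of the RefSeq assembly GRCr8, Riiad1 overlaps Celf3 and had means of 5.8 ± 2.5 (D1) and 11.9 ± 3.5 (MBNL KD) scaled counts, far below Celf3. The flanking genes of Celf3 had log2 differences of 0.28 (mrpl9) and 0.10 (Snx27) in MBNL KD against D1. Of the genes on either side of Celf4, Tpgs2 fell in MBNL KD (log2 fold change -1.18) and had -0.23 in P, whereas Pik3c3 had -0.17 in MBNL KD and 0.35 in P. Neither neighbour rose with Celf4. Around Celf2, Gata3 and Usp6nl had 0.13 and -0.70 in P, and the overlapping LOC102547255 had a mean of 11.7 ± 7.2 scaled counts in P.

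For each tested CELF gene, the genes with the most similar profile over the 12 libraries were found by the root-mean-square difference of log2 CPM after centring each gene on its mean, among 17510 genes. This measure is a description, and the libraries share scaling and groups. Nearest to Celf1 were Sptbn1 (0.031), Ppp2r5e (0.036) and Ywhah (0.037), which encode a spectrin, a phosphatase subunit and an adaptor of the 14-3-3 family. Nearest to Celf2 were Arl4a (0.088), Tmem50b (0.095) and Npnt (0.12). Arl4a, a small GTPase, averaged 714 ± 42.5 (D1), 3644 ± 110 (P), 811 ± 46.6 (RBPMS KD1) and 731 ± 5.7 (MBNL KD) scaled counts.

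Nearest to Celf3 were Itga2 (0.31), LOC108352784 (0.36) and Ccl11 (0.39). Itga2, the collagen-binding integrin alpha 2 chain, averaged 357 ± 45.6 (D1), 301 ± 2.0 (P), 541 ± 22.3 (RBPMS KD1) and 2199 ± 135 (MBNL KD) scaled counts, and was thus highest where Celf3 was. Nearest to Celf4 were Cavin4 (0.53), a caveolar protein of striated muscle, and LOC102547357 (0.63). Cavin4 had 49.2 ± 7.7 in D1, 377 ± 29.1 in P, 36.3 ± 8.6 in RBPMS KD1 and 205 ± 19.5 in MBNL KD. The difference grows with a gene's own spread, so that it does not rank the likeness between CELF genes. With a prior count of 2 in place of 0.5 Cavin4 stayed among its 3 nearest genes and LOC102547357 did not, and 2 of the 3 of Celf3 were kept. Celf5 was nearest to Pcdhb17, Ift22 and Tmod4 (0.15 each).

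Of 14 genes whose mRNAs are reported to be bound by CELF1 or CELF2 for decay or translation, 10 were tested in P against D1, where Junb rose and Ptgs2, Myc, Cdkn1a and Fos fell, 5 genes in all, beside 27.6% of all tested genes. Their median log2 fold change was -0.61, beside 0.02 over all tested genes. Ptgs2, the inducible cyclooxygenase whose mRNA CELF2 is known to bind, went from 1244 ± 149 to 177 ± 30.8 scaled counts (log2 fold change -2.82). Myc fell by 2.60, Cdkn1a, a cyclin-dependent kinase inhibitor, by 1.84, and Fos by 1.33 on the log2 scale, while Junb, like Fos a subunit of AP-1, rose by 1.17. In RBPMS KD1, where 4.68% of all tested genes were called, none of the 10 tested was (median -0.01, beside 0.004 over all genes).

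In MBNL KD 2 of 11 tested genes of this list rose, Cebpb and Myod1, where 10.2% of all tested genes were called, with a median of 0.16 beside 0.01 over all genes. Cebpb, a transcription factor whose mRNA CELF1 is known to bind, went from 4548, 3892 and 3858 scaled counts (D1) to 8225, 8181 and 8878 (MBNL KD), a log2 fold change of 1.05. The 2 groups did not overlap. Myod1, a skeletal muscle transcription factor, had no count in any D1 library and 63.6, 43.5 and 69.8 scaled counts in MBNL KD, and the fitted fold change is no bound and is not given.

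The 8 genes with exons reported to be regulated by CELF proteins were all tested. These values are total counts of each gene and not of its exons. In P, Mapt, the microtubule-associated protein tau, rose from 36.9 ± 3.7 to 336 ± 13.5 (log2 fold change 3.18), and Actn1, alpha-actinin-1, fell from 85036 ± 1520 to 23081 ± 205 (-1.88), with a median of 0.27 over the list beside 0.02 over all genes. Tnnt2, cardiac troponin T, averaged 254 ± 16.9 (D1), 75.3 ± 18.9 (RBPMS KD1) and 768 ± 55.8 (MBNL KD) scaled counts, so that it fell in one knockdown (log2 fold change -1.75) and rose in the other (1.60). Clcn1, the skeletal muscle chloride channel, also fell in RBPMS KD1, from 22.5 ± 7.6 to 5.4 ± 2.3. The list had 2 called genes in P, where 27.6% of all tested genes were called, 2 in RBPMS KD1, where 4.68% were (median -0.44, beside 0.004 over all genes), and 1 in MBNL KD, where 10.2% were (median 0.13, beside 0.01).

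Of 24 decay and AU- or GU-rich element-binding proteins, 22 were tested and 1 was called in each comparison with D1, beside 27.6% of all tested genes in P, 4.68% in RBPMS KD1 and 10.2% in MBNL KD. Zfp36l2, a decay activator, rose in P (log2 fold change 1.36). Elavl2, an mRNA-stabilising protein, fell in RBPMS KD1 (-1.12). Cnot6, a deadenylase of the CCR4-NOT complex, fell in MBNL KD, from 15840 ± 151 to 7500 ± 228 scaled counts (-1.07). Parn, the deadenylase that CELF1 is known to recruit, had 3690 ± 72.4 in D1, 4210 ± 101 in P, 3038 ± 87.6 in RBPMS KD1 and 2434 ± 69.9 in MBNL KD, with no call. The medians were 0.01 in P, -0.10 in RBPMS KD1 and -0.17 in MBNL KD, beside 0.02, 0.004 and 0.01 over all tested genes, and the same all-gene medians apply to the next lists.

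Among kinases and cyclins reported to act on CELF1, 7 of 8 were tested, and 2 were called in P, where 27.6% of all tested genes were, with Ccnd1 (cyclin D1) higher (log2 fold change 1.30) and Prkca (protein kinase C alpha) lower (-1.19). None was called in the knockdowns, where 4.68% (RBPMS KD1) and 10.2% (MBNL KD) of all tested genes were. Their medians were -0.37 in P, -0.06 in RBPMS KD1 and 0.05 in MBNL KD.

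Of 22 other splicing regulators, 18 were tested in P and 16 in each knockdown. In P, 5 rose and 1 fell, and 2 were called in each knockdown, beside 27.6% of all tested genes in P, 4.68% in RBPMS KD1 and 10.2% in MBNL KD. Esrp2, an epithelial splicing regulator, rose by 1.72 and Khdrbs3, of the STAR family, by 1.37 on the log2 scale, and Rbpms fell by 3.99. The other 3 that rose, Srrm4, Nova1 and Rbfox1, are neural regulators with mean scaled counts of 66.5, 47.2 and 25.8 in P and 10.9, 0.69 and 0 in D1. In RBPMS KD1 the targeted Rbpms and Ptbp3 (-1.23) fell, and in MBNL KD Khdrbs3 fell (-1.25) and Srrm4 rose (1.51), with medians of 0.03, -0.26 and -0.20 in the 3 comparisons.

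**Figure D5:**
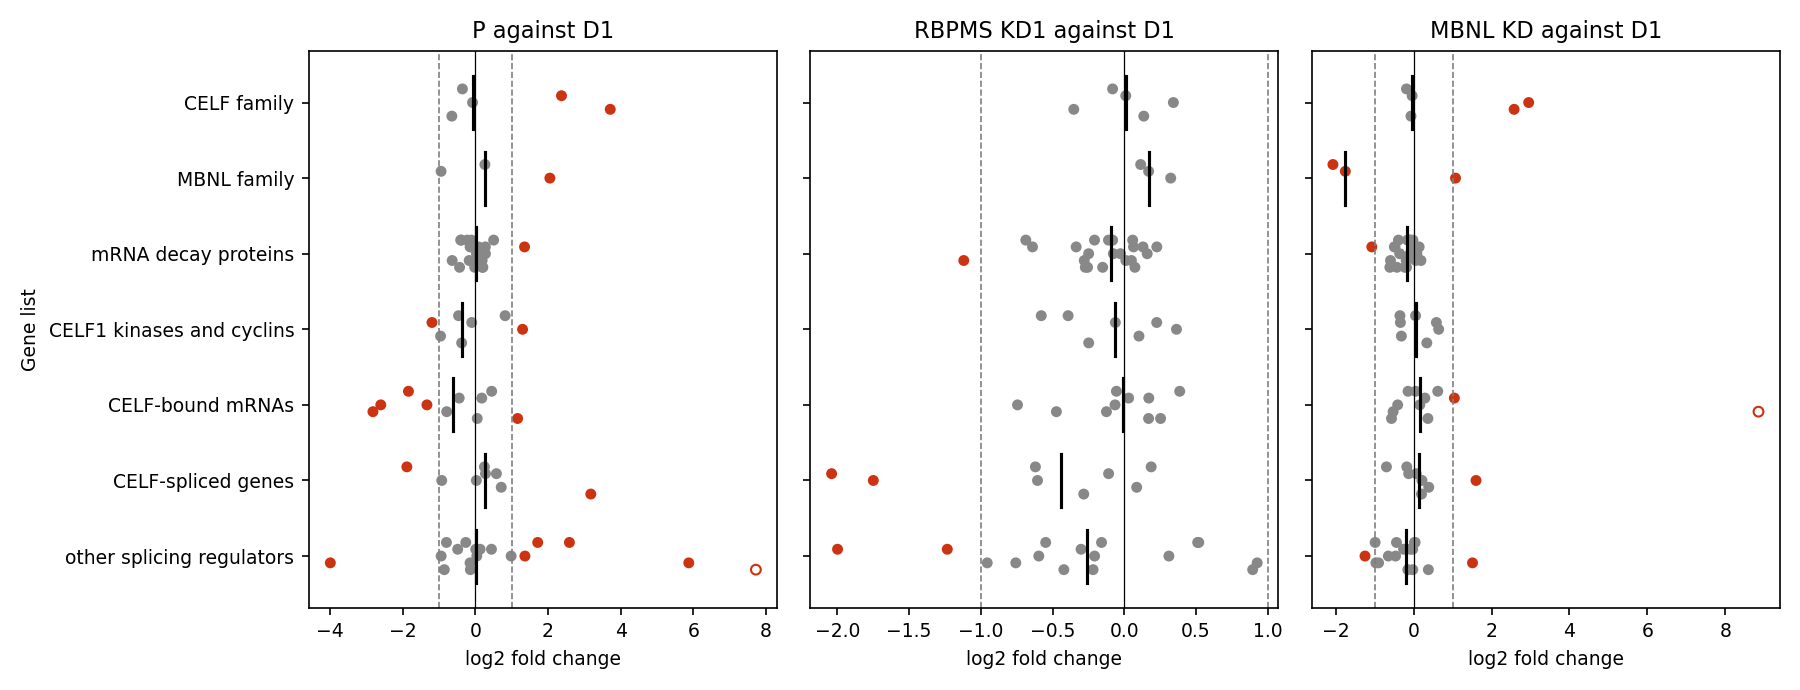
Log2 fold change against D1 (horizontal axis, with a different range in each panel) of the tested genes of 7 lists, red where called and grey where not, with a black line at each list's median, dashed lines at the fold threshold and open circles for genes with no count in 1 of the groups, whose fitted value is no bound. The CELF row shows 2 called genes in P and 2 in MBNL KD and none in RBPMS KD1.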

How the data were processed

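Poly(A) RNA of 12 PAC1 libraries was sequenced with a directional kit. Per the labels, the submitters' processing notes name FastQC 0.11.9, MultiQC 1.14, STAR 2.7.11b, edgeR 3.40.2, DESeq2 1.38.3 and the build mRatBN7.2. The authors deposited raw counts per gene symbol, counted with featureCounts from subsampled reads without normalization. They also deposited a table of normalised signal values, made from the counts by noise correction and quantile normalization, with a smallest value of 35, which was used here for alternatives only. The strand setting of the counting is not given in the sources used here.

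Libraries were grouped by their labels. Each of 6 comparisons was fitted to its 6 libraries with edgeR 4.0.16 in R 4.3.3 (filterByExpr, TMM, quasi-likelihood F test, Benjamini-Hochberg adjustment over all tested genes, with the thresholds of the study's methods, an adjusted p below 0.05 and a log2 fold change beyond 1). Standard errors were derived from the F statistic and 95% intervals use the fit's degrees of freedom. Floors of 3 counts cover counting error only. The procedure was checked on simulated counts. DESeq2 1.42.0 and limma 3.58.1 served as alternatives, beside other scalings, filters and thresholds, halved counts, 1 fit of all 12 libraries, a replicate block and leaving out each library.

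The members and gene lists were chosen with earlier results of these data known. Genes named from the lists are called genes whose higher group had 100 or more scaled counts, and any member of the MBNL, CELF-bound and CELF-spliced lists. Markers of cell types were named from lists of their own, whatever their level. Parn and the low-count regulators Srrm4, Nova1 and Rbfox1 were named after their values were seen. One gene that the rules select is not reported here. The gene listed as Qki was read from the row Qk. Neighbours came from a RefSeq gene table of GRCr8, in which 26967 of 33294 symbols were found. Its coordinates served only for the order and overlap of genes. Gene lengths, splicing events and the study's other experiments were not analysed here.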

Additional observations from a re-analysis of the deposited data

Results flagged for a closer look

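By a direct test between the knockdowns, 2 of the 5 tested CELF genes were called, where 11.9% of all tested genes were. Celf3 was higher in MBNL KD than in RBPMS KD1 by a log2 fold change of 2.61 (edgeR adjusted p = 1.6e-16), and Celf4 by 2.93 (edgeR adjusted p = 1.7e-11), each with all 3 MBNL KD libraries above all 3 RBPMS KD1 libraries. Celf1 separated too, with MBNL KD lower, and no share of all genes that separate is given. With 1 library left out the log2 fold changes were 2.51 to 2.67 for Celf3 and 2.59 to 3.50 for Celf4. By limma on the authors' normalised values they were 2.05 and 1.84.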

How the results depend on the processing

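The calls of Celf2 and Celf4 in P against D1 and of Celf3 and Celf4 in MBNL KD against D1 kept their direction and their side of the threshold in all 16 alternatives computed for each, with log2 fold changes of 2.33 to 2.54, 2.40 to 3.94, 2.18 to 3.09 and 1.61 to 2.80. The lowest values of Celf4 in P and of Celf3 and Celf4 in MBNL KD came from limma on the authors' normalised signal, and the cause was not tested. Signs changed only for differences that were not called. Celf3 in P against D1 was 0.092 under scaling by total counts and -0.21 to 0.099 with 1 library left out (0.061 without D1 replicate 1), and limma on the normalised values gave -0.32 (adjusted p = 0.047), the one alternative in which it passed the adjusted p. Celf2 in RBPMS KD1 against D1 was -0.030 to 0.060 with 1 library left out (-0.0029 and -0.017 in the other 2 fits below 0). Celf2 in MBNL KD against D1 was 0.039 under upper-quartile scaling, 0.017 by total counts, 0.039 by limma on the authors' normalised values and -0.084 to 0.0052 with 1 library left out. Celf5 in MBNL KD against D1 was 0.0085 under upper-quartile scaling and -0.18 to 0.12 with 1 library left out, and Celf2 in MBNL KD against RBPMS KD1 was 0.0015 by limma. Celf4 in P against MBNL KD was 0.79 by limma and not called.

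Scaling by total counts moved the median of all genes to 0.188 in P against D1 (0.020 with TMM), 0.180 in P against RBPMS KD1 and 0.152 in P against MBNL KD, and Celf1 in P is then to be read against that shift. Counts of called genes were 4641, 745, 1643, 1920, 4914 and 5577 for P, RBPMS KD1 and MBNL KD against D1, MBNL KD against RBPMS KD1, P against RBPMS KD1 and P against MBNL KD. With no fold threshold they were 13103, 9393, 10833, 11202, 13423 and 13833, of 16814, 15904, 16053, 16111, 16899 and 16973 genes tested. In the same order, 4, 1, 3, 3, 4 and 5 of the 5 tested CELF genes passed. Requiring at least 10 counts in every library tests fewer genes. There 2933 were called in P against D1 and 3154 in P against RBPMS KD1. Limma on the normalised values called 209, 784 and 1050 in RBPMS KD1 against D1, MBNL KD against D1 and MBNL KD against RBPMS KD1, and in P, RBPMS KD1 and MBNL KD against D1 the share of calls that were higher was 50.4%, 50.2% and 49.5%, beside 59.4%, 65.4% and 59.6%.

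The replicate numbers do not mark pairs in the labels, and same-numbered libraries of different groups deviated with correlations of -0.043 to 0.068. With the replicate number as a block, 4593, 730, 1634, 1915, 4897 and 5548 genes were called in the same order, and no CELF call changed. Celf6, at 0 to 8 counts, could not be tested at this depth.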
